A study of Rattus norvegicus with 4 samples.

Results

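The genes described here hold epithelial cells of the rat ventral prostate to one another: the claudins Cldn1, Cldn3, Cldn4 and Cldn7, occludin (Ocln), the junctional adhesion molecule gene F11r, the scaffold gene Tjp1, E-cadherin (Cdh1) and beta-catenin (Ctnnb1). They were taken as all probe sets that the platform annotation maps to one of these symbols and to no other, which gave 17 probe sets of 9 genes, among 14217 genes with a single-gene probe set. In the PhIP group, male rats of the laboratory strain F344, 6 weeks of age, received 300 mg/kg of PhIP, a carcinogenic amine that forms in meat during cooking. Control rats, of the same strain, sex and age, did not receive it, and tissue was taken 2 days later. PhIP and control each have 4 rats on 2 Affymetrix arrays, every array being a pool of RNA from 2 rats, so that a pool and not an animal is the replicate.

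Tight junctions seal the space between neighbouring epithelial cells near the lumen, and claudins form the seal and its ion-selective pores. Occludin and F11r lie in the same strands, and Tjp1 (ZO-1) ties them to actin. Adherens junctions lie just below: E-cadherin binds its counterpart on the next cell and is anchored through beta-catenin, which also carries Wnt signals to the nucleus. In the prostate these junctions separate the secretion in the lumen from the stroma and blood.

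The median MAS5 signal (the array software's summary of a probe set, on a linear scale) was 23.1 to 23.2 on the PhIP arrays and 25.5 to 27.4 on the control arrays. Across 18625 tested probe sets, the correlation of log2 values was 0.987 between the PhIP pools and 0.972 between the control pools. Control 1 was closer to PhIP 1 and PhIP 2 (0.980 and 0.979) than to control 2. Control 2 correlated with PhIP 1 and PhIP 2 at 0.967 and 0.964 and was the array least like the others. The 3′ to 5′ actin ratio, which climbs as RNA degrades, was 3.93 and 3.49 in PhIP and 4.18 and 5.71 in control, with control 2 highest. As the tissue label would have it, Sbp, which encodes spermine-binding protein, a main secretion of the rat ventral lobe, was bright, at 8219.2 and 8045.3 in PhIP and 7243.7 and 6436.1 in control.

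Occludin, E-cadherin and F11r stood higher in PhIP than in control, and Cldn4 and Cldn1 stood lower. On the scale of log2(signal + 10), the difference of PhIP from control ran from −0.58 to 0.58 over the members' probe sets. Of the 17, 13 were bright enough to be tested, at least 1 for each of the 9 genes, and the other 4 had signals of 0.8 to 15.2. None of the 13 passed an adjusted p of 0.05 in limma's moderated test, which 0.0268% of all tested probe sets passed. At an unadjusted p under 0.05, 3 were higher and 2 lower in PhIP, against a background of 5.36% higher and 7.61% lower (13.0% in all). The PhIP arrays lay above both control arrays for 6 probe sets and below both for 3, against 19.8% and 26.0% of all tested probe sets. The median log2 change was 0.18 over the 13 and −0.03 over all tested probe sets. These values describe the members and do not set them apart from other genes.

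**Figure D1:**
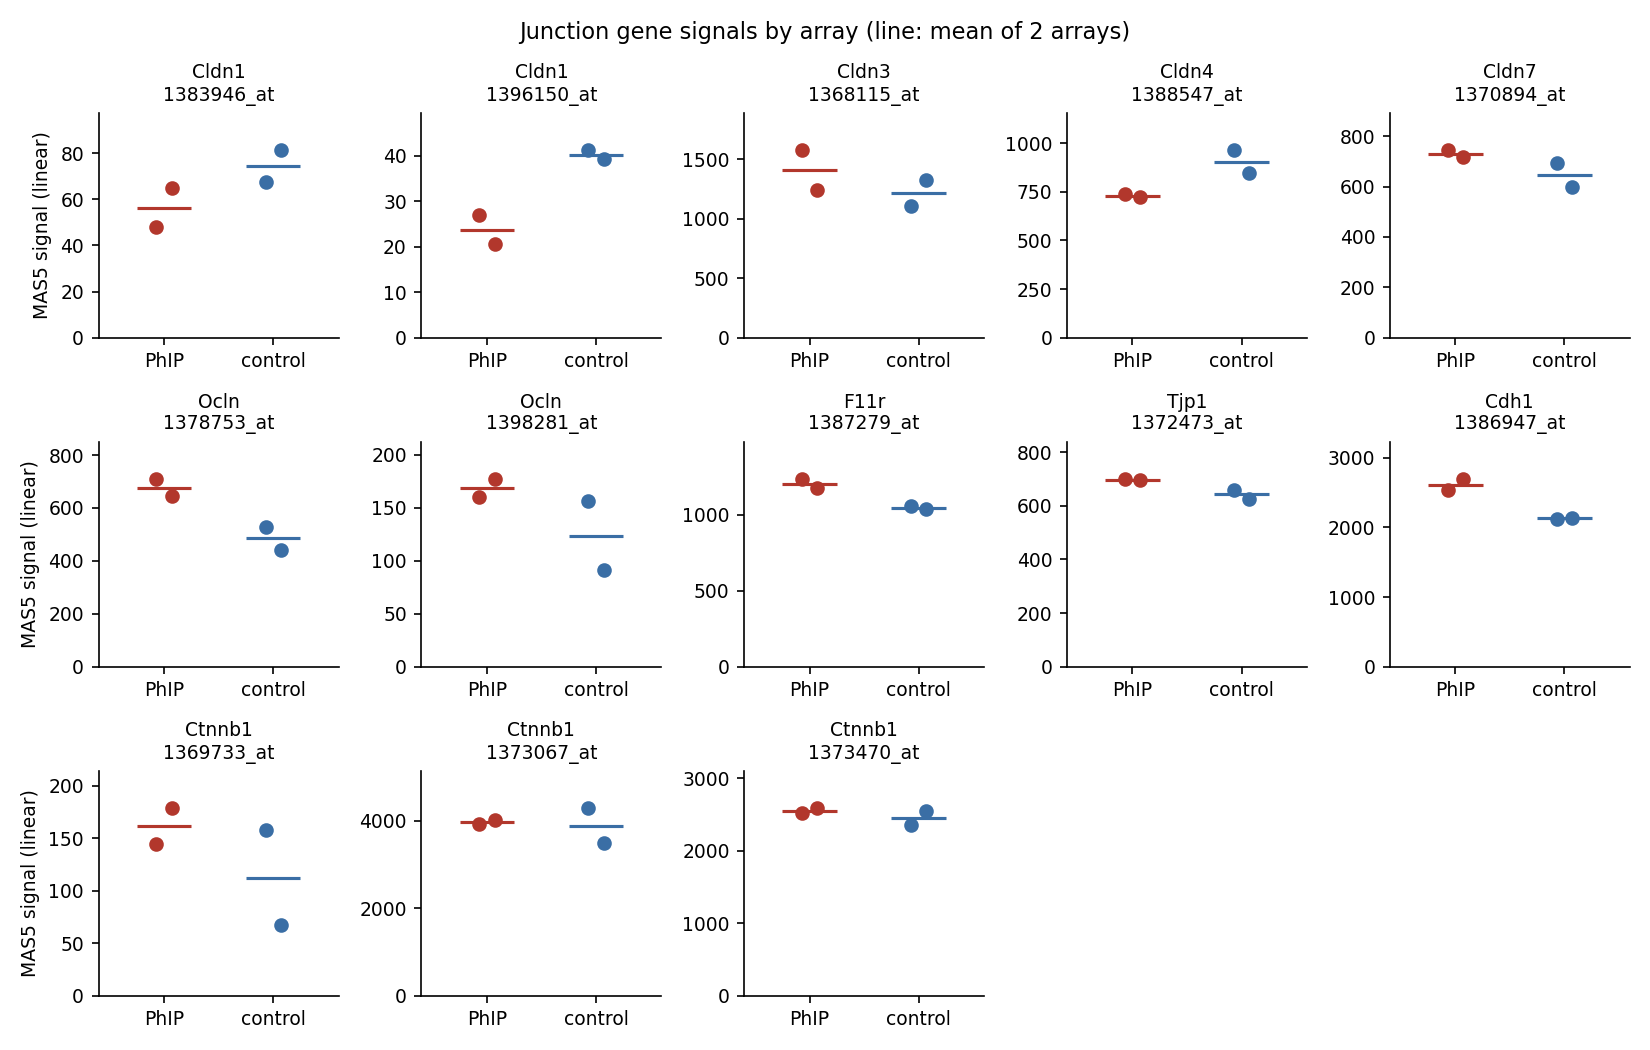
MAS5 signal (linear axis from 0) of the 13 tested probe sets on the 2 PhIP arrays (red, left) and the 2 control arrays (blue, right), with the mean of each pair as a line. Both Ocln probe sets, F11r, Tjp1, Cldn7 and Cdh1 lie higher in both PhIP arrays, Cldn4 and the 2 Cldn1 probe sets lie lower, and the groups overlap for Cldn3 and Ctnnb1.

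Calls depended on the array left out. Without control 1, 4 of the 13 probe sets had an adjusted p under 0.05, where 12.7% of all tested probe sets did. Without control 2, 2 of the 13 did, where 2.51% of all did, and without PhIP 1 or without PhIP 2 none did, as for all tested probe sets (0.00%). At an unadjusted p under 0.05 there were 2 members without PhIP 1 (5.87% of all) and 2 without PhIP 2 (5.62% of all). With a control array left out, the spread between samples comes from the 2 PhIP pools alone, which resembled each other more than the control pools did, and the lone control array is assumed to vary like them. The p-values without a control array, here and below, are thus no support for a change.

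Among the claudins, Cldn4, which encodes a sealing claudin of many glandular epithelia, had signals of 736.9 and 723.5 in PhIP and 963.1 and 847.5 in control. Both PhIP arrays were below both control arrays, and the PhIP pools lay close together. Its log2 fold change was −0.30 ± 0.10 (SE), with a limma adjusted p of 0.277. The mean signal was 730.2 ± 9.48 in PhIP and 905.3 ± 81.7 in control (SD, n = 2 each). Without control 2 the change was −0.39, and without control 1 it was −0.21. It was −0.32 without PhIP 1 and −0.29 without PhIP 2.

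Cldn3 and Cldn7, which encode further claudins of glandular epithelium, did not share that direction. Cldn3 had signals of 1575.3 and 1245.2 in PhIP and 1107.4 and 1329.6 in control, so that the groups overlapped (log2 fold change 0.21 ± 0.13, limma adjusted p = 0.544). Cldn7 had 743.6 and 716.4 in PhIP and 692.3 and 600.0 in control, both PhIP arrays being higher (0.18 ± 0.10, limma adjusted p = 0.512). In the RefSeq gene table of assembly GRCr8, Cldn3 and Cldn4 are neighbours on chromosome 12 with only 2 annotated pseudogenes between them. Their changes stood at 0.21 and −0.30.

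Cldn1, needed for the skin's barrier in mice, was much dimmer in its probe sets. Probe set 1396150_at had signals of 27.0 and 20.6 in PhIP and 41.2 and 39.4 in control (log2 fold change −0.58 ± 0.21, limma adjusted p = 0.330). Probe set 1383946_at had 47.8 and 65.0 in PhIP and 67.6 and 81.2 in control (−0.35 ± 0.20, limma adjusted p = 0.491). Both probe sets were lower in both PhIP arrays, though by little in the second, where PhIP 2 and control 1 lay at 65.0 and 67.6. The remaining probe set, 1387470_at, was too dim to test at 12.1 and 9.2 in PhIP and 4.1 and 15.2 in control.

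Occludin is a tight junction protein that crosses the membrane repeatedly and binds Tjp1 inside the cell. Its brighter probe set, 1378753_at, had signals of 707.8 and 645.1 in PhIP and 529.3 and 442.1 in control. Both PhIP arrays were well above both control arrays, a log2 fold change of 0.47 ± 0.12 (1.39-fold on that scale, limma adjusted p = 0.181). The other probe set, 1398281_at, had 160.2 and 176.5 in PhIP and 156.3 and 90.8 in control. There the groups were separate only narrowly, since control 1 lay beside the PhIP arrays (0.46 ± 0.23, limma adjusted p = 0.444). Without control 1 the log2 changes of the 2 probe sets were 0.60 and 0.82, and without control 2 they were 0.35 and 0.10. They were 0.41 and 0.53 without PhIP 1, and 0.54 and 0.39 without PhIP 2.

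Occludin and Cldn4 thus stood on opposite sides of 0, the pattern for which the pair was singled out. The within-array difference of their log2 values, which no scaling factor common to an array can move much, was 0.83 and 0.72 in PhIP and 0.04 and −0.04 in control, each relative to the control mean. The shift of 0.78 is a description, because the pair was chosen for its opposite changes in these same arrays. In addition, 2 arrays against 2 cannot give an exact permutation p below 0.333. F11r, which encodes the junctional adhesion molecule JAM-A, had signals of 1233.8 and 1177.1 in PhIP and 1060.0 and 1037.3 in control. All 4 values were tightly grouped, with PhIP higher (log2 fold change 0.20 ± 0.08, limma adjusted p = 0.368).

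Windows at the annotated gene starts of members that were higher in both PhIP arrays (Ocln, Cldn7, F11r and Tjp1) or lower in both (Cldn1) are shown, and Cdh1 and Cldn4 are named only. They are of interest because the transcriptional repressors of epithelial genes described further on are known to bind the E-box CAGGTG. Each runs from 250 bases before to 50 after the gene's start in RefSeq's annotation of GRCr8, 5′ to 3′ along the gene. Capitals mark each CAGGTG on either strand, which reads CACCTG where it lies on the other.
Ocln chr2:33441149-33441448 (- strand): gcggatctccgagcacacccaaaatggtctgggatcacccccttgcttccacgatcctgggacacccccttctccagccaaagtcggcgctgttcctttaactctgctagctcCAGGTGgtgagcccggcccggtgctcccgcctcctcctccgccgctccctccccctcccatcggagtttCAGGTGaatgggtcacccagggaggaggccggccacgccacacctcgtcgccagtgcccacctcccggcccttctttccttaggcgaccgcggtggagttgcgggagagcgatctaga
Cldn7 chr10:55188420-55188719 (+ strand): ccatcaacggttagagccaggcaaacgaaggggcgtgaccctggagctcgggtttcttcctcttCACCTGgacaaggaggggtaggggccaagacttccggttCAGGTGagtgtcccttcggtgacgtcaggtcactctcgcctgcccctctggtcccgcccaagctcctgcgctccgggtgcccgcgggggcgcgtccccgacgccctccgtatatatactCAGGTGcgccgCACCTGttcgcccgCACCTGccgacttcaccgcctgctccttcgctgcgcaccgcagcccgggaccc
F11r chr13:86405979-86406278 (+ strand): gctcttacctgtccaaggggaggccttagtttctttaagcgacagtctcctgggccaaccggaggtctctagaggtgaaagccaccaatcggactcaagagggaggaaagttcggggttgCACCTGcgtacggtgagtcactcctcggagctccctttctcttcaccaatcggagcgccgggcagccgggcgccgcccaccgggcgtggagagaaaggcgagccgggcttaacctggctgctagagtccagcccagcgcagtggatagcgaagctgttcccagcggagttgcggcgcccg
Tjp1 chr1:128325311-128325610 (- strand): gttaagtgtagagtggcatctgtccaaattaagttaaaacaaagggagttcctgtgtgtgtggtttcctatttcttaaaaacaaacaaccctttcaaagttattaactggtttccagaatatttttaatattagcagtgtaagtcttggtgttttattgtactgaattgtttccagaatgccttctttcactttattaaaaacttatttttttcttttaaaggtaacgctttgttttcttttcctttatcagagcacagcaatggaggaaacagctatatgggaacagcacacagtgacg
Cldn1 chr11:87926126-87926425 (+ strand): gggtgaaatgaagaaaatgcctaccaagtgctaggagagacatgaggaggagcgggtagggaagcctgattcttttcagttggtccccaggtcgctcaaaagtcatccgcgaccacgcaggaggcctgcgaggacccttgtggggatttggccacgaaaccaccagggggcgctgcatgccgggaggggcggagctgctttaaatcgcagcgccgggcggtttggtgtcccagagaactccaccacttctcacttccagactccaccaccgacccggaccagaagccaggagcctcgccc
Ocln held 2 matches, Cldn7 held 5, F11r held 1, and Tjp1 and Cldn1 held 0. Of the 33469 windows of that length, 18.8% held at least 1, 2.52% at least 2 and 0.0120% at least 5. Among the 7 members with such a window, 4 held a match: Cldn3, with 1, was the fourth, and Ctnnb1 held 0. The letters of Tjp1 and Ctnnb1 appear to take in protein-coding sequence of an inner exon, so these windows may not be promoters. Their counts of 0 therefore say nothing about the promoters of these genes. A match in this window is a description of the letters and not a binding site.

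Tjp1, the scaffold that links claudins and occludin to the cytoskeleton, had signals of 698.2 and 694.3 in PhIP and 658.4 and 626.6 in control. Both PhIP arrays were higher by a small margin (log2 fold change 0.11 ± 0.09, limma adjusted p = 0.622). A second probe set, 1395337_at, lay at 1.8 and 1.2 in PhIP and 4.0 and 0.9 in control and was not tested.

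Of the adherens junction pair, E-cadherin was higher in PhIP while beta-catenin was nearly level. Cdh1 had signals of 2539.5 and 2689.6 in PhIP and 2127.1 and 2140.7 in control. The control arrays were almost equal and both PhIP arrays were higher, a log2 fold change of 0.29 ± 0.07 and the lowest p among the members (limma unadjusted p = 0.00341, adjusted p = 0.169). The change was 0.29 without control 1 (limma adjusted p = 0.0183) and 0.30 without control 2 (limma adjusted p = 0.0414), fits in which the spread comes from the PhIP pair. It was 0.33 without PhIP 1 (limma adjusted p = 0.750) and 0.25 without PhIP 2 (limma adjusted p = 0.895). Its other probe set, 1386446_at, was too dim to test, at 3.6 and 5.8 in PhIP and 1.5 and 0.8 in control.

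The brightest Ctnnb1 probe set, 1373067_at, had signals of 3933.1 and 4017.0 in PhIP and 4287.2 and 3504.5 in control (log2 fold change 0.04 ± 0.09, limma adjusted p = 0.891). The PhIP values lay between the control values, and the change turned to −0.11 without control 2. Probe set 1373470_at had 2522.7 and 2581.9 in PhIP and 2348.2 and 2547.6 in control (0.06 ± 0.07, limma adjusted p = 0.741). Probe set 1369733_at read differently, at 144.0 and 178.3 in PhIP and 157.7 and 67.2 in control. Its log2 fold change of 0.58 ± 0.33 (limma adjusted p = 0.489) was 1.14 without control 1 and 0.02 without control 2. In this probe set and in Ocln 1398281_at, control 2 lay apart from the other 3 arrays, by 1.12 and 0.72 on the log2 scale from control 1. Control 2 is also the array with the 3′ to 5′ actin ratio of 5.71, and the part of RNA integrity in these values was not tested. The remaining Ctnnb1 probe set, 1375284_at, was too dim to test, at 1.3 and 3.8 in PhIP and 7.4 and 6.5 in control.

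**Figure D2:**
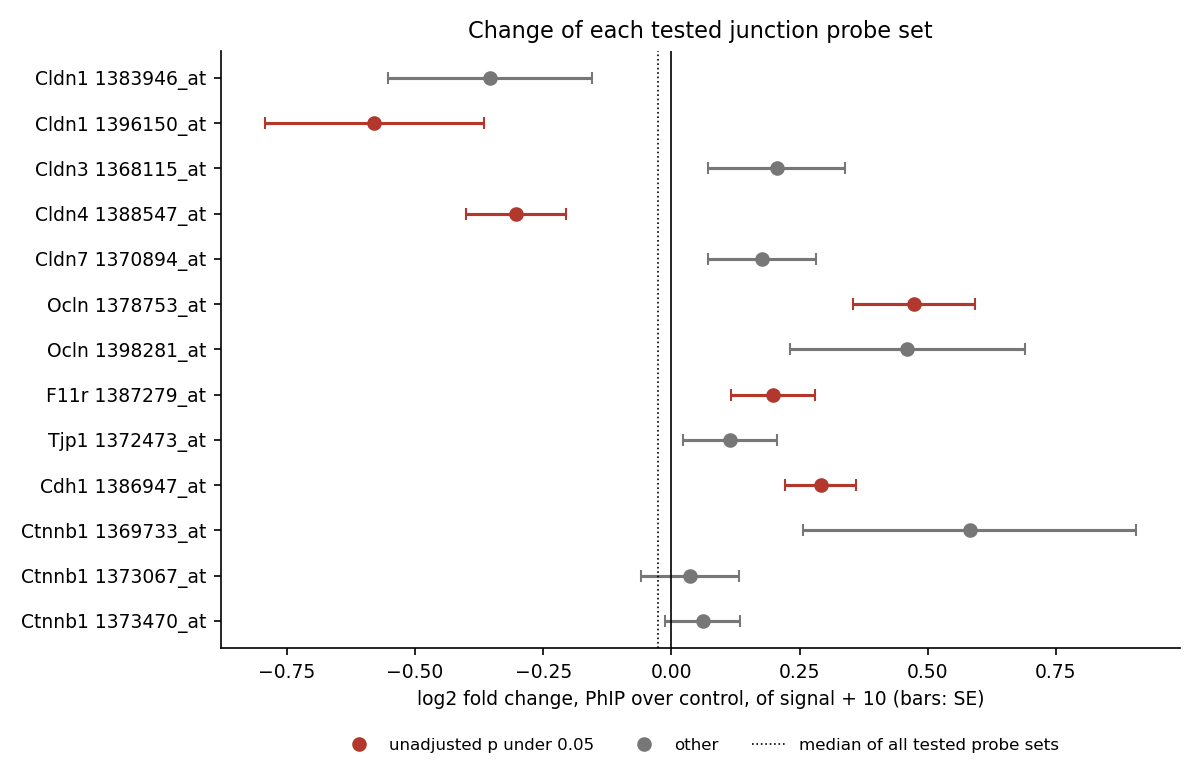
Log2 fold change of signal + 10, PhIP over control, of the 13 tested probe sets, with SE from limma as bars. Red marks an unadjusted p under 0.05 and the dotted line the median of all tested probe sets (−0.03). Ocln, Cdh1 and F11r lie to the right and Cldn4 and Cldn1 to the left, and the bars are widest for the dim Cldn1 probe sets, Ocln 1398281_at and Ctnnb1 1369733_at.

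How the arrays were scaled also moved the members. Centring each array on its median shifted the median log2 change of all tested probe sets by 0.14, and scaling to the hybridization controls (foreign transcripts spiked equally into each sample) by 0.21. At an unadjusted p under 0.05, the split of members was then 8 higher and 0 lower (13.5% and 3.46% of all tested probe sets), and 9 higher and 0 lower (19.8% and 2.42%), in place of 3 and 2. Cldn4 stood at −0.17 and −0.07 under these scalings. Measured from the median of all tested probe sets, over the 5 scalings, Cldn4 lay between −0.35 and −0.25, Ocln 1378753_at between 0.44 and 0.52, and Cdh1 between 0.24 and 0.34. The direction of each tested probe set was the same under all 5 scalings except for Ctnnb1 1373067_at, which stood at −0.01 after quantile normalization and −0.02 after cyclic loess.

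**Figure D3:**
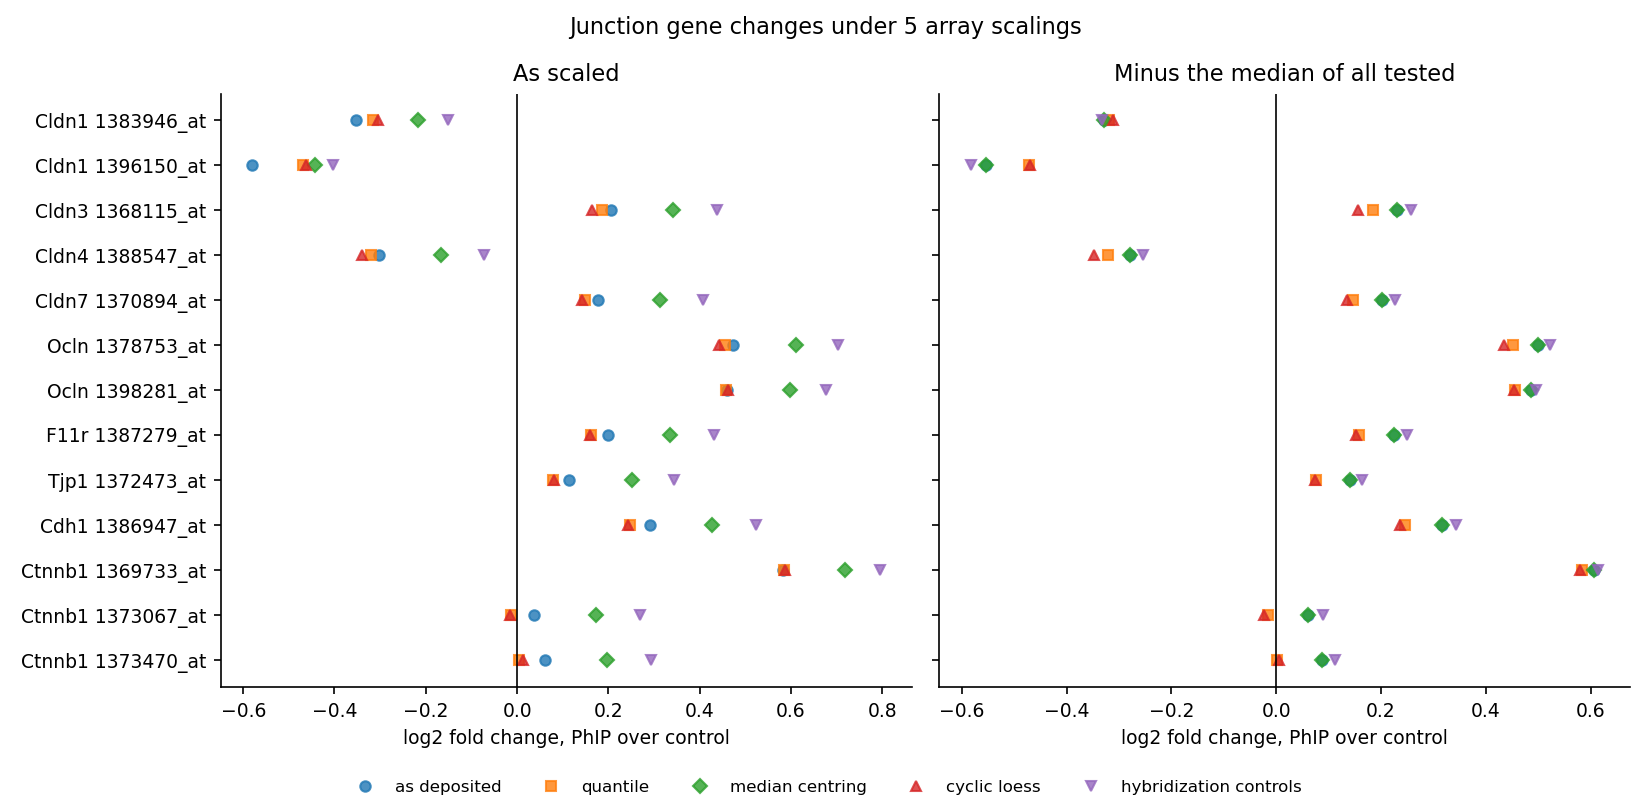
Log2 fold change of each tested probe set, PhIP over control, under 5 array scalings (left), and the same minus the median of all tested probe sets (right). On the left, median centring and the hybridization controls move every point to the right. On the right, the 5 values of a probe set lie closer together, with Ocln between 0.44 and 0.52 and Cldn4 between −0.35 and −0.25.

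Most stromal markers stood lower in PhIP, though without a test over the list. The counts that follow stand beside 5.36% higher and 7.61% lower of all tested probe sets at an unadjusted p under 0.05. The summed signal of 5 smooth muscle markers (Acta2, Actg2, Myh11, Cnn1 and Des) was 2222.0 and 2189.6 in PhIP and 3817.5 and 3713.0 in control, with 5 of 5 lower in PhIP at an unadjusted p under 0.05. Of 5 fibroblast markers 4 were lower at that p (Col1a1, Col1a2, Col3a1 and Pdgfra). The sum of all 5 was 6452.3 and 6439.9 in PhIP and 10746.3 and 8362.3 in control. The remaining marker, Dcn, had overlapping groups, at 1722.3 and 1740.5 in PhIP and 2097.7 and 1627.2 in control (log2 change −0.09). The sum of 6 measured luminal epithelial markers was 9677.8 and 10059.9 in PhIP and 9645.1 and 9225.0 in control, with 3 of 6 higher at that p. Those 3 were the keratin gene Krt19, at a log2 change of 0.63, the luminal transcription factor gene Foxa1, at 0.61, and the epithelial adhesion gene Epcam, at 0.17. The luminal keratin genes Krt18 and Krt8 stood at 0.13 and 0.07 and probasin (Pbsn) at −0.06. Basal epithelial markers summed to 811.5 and 906.6 in PhIP and 919.3 and 888.9 in control, with Krt14 lower at that p and 3 of 4 not. Endothelial markers summed to 118.2 and 113.6 in PhIP and 160.2 and 175.4 in control, with Tie1 lower at that p and 3 of 4 not. Leukocyte markers summed to 5375.7 and 5413.2 in PhIP and 4512.2 and 4318.7 in control, nearly all of it from the lysozyme gene Lyz2. Lyz2 was the 1 of 3 tested that was higher at that p. Cd68 was on the other side, at 24.0 and 18.3 in PhIP and 32.7 and 31.3 in control (log2 change −0.44). Ptprc stood at 0.23, and the T cell gene Cd3e had signals of 0.4 to 13.2. The list thus had no common direction. No marker on these lists was at 0 on any array. The part of cell composition in the junction values was not tested, and in whole tissue fewer cells of a type cannot be told apart from less RNA per cell.

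Junction genes beyond the 9 showed no common direction. Of 90 further tight junction, adherens junction and desmosome genes listed, 74 had a single-gene probe set and 57 were tested, each by its brightest. None passed an adjusted p of 0.05 in limma. At an unadjusted p under 0.05, 7 were higher and 2 lower, beside 5.36% and 7.61% of all tested probe sets. In both directions together these were 15.8%, against 13.0% of all. The groups did not overlap for 43.9% of them, against 45.8% of all. Their median log2 change was −0.06. These shares are near the background and are no result about the list.

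Among 6 other claudins tested, 2 were higher and none lower at an unadjusted p under 0.05 (5.36% and 7.61% of all tested probe sets). Cldn6, a claudin of embryonic epithelia, had signals of 46.9 and 43.8 in PhIP and 18.4 and 9.7 in control, with no overlap (log2 fold change 1.23 ± 0.25, limma adjusted p = 0.119). Its change was 1.49 without control 1, 0.96 without control 2, and 1.39 after scaling to the hybridization controls (limma adjusted p = 0.0401). Its mean of log2(signal + 10) was 5.79 in PhIP and 4.56 in control, where the lowest mean tested was 4.60. Cldn6 was thus bright enough to be tested only through the PhIP arrays, and its p-values are no support for a change. Cldn8, known for sealing the kidney's collecting duct, had 956.7 and 791.4 in PhIP and 690.4 and 742.8 in control (0.28 ± 0.11, limma adjusted p = 0.368). Cldn11 and Cldn18, at −0.18 and −0.14, had overlapping groups, and Cldn18 stood at 0.01 after scaling to the hybridization controls.

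Of 7 other membrane proteins of the tight junction, none passed an unadjusted p of 0.05 in limma. Lsr, which recruits tricellulin to the corners between cells, was at a log2 change of 0.19 ± 0.10, while the adhesion molecule genes Cxadr (−0.39 ± 0.23) and Jam2 (−0.27 ± 0.17) and the tricellular gene Ildr2 (−0.43 ± 0.28) were on the other side. Scaling to the hybridization controls brought these to −0.20, −0.06 and −0.28. Leaving out control 2 brought them to −0.13, −0.14 and −0.15. Among 18 scaffold and polarity genes, 1 was higher and 1 lower at that p (5.36% and 7.61% of all), from partners of one polarity complex. Prkci, which encodes its atypical protein kinase C, had signals of 673.1 and 677.6 in PhIP and 550.4 and 532.9 in control (0.31 ± 0.09, limma adjusted p = 0.244). Pard3, its scaffold, had 159.0 and 149.9 in PhIP and 230.3 and 188.1 in control (−0.41 ± 0.15, limma adjusted p = 0.311). Neither gene's groups overlapped. Prkci stood at 0.34 without control 1 and 0.29 without control 2, and Pard3 at −0.27 without control 1 and −0.55 without control 2. After scaling to the hybridization controls Pard3 stood at −0.19. Crb3, an apical polarity protein gene, stood at −0.26 ± 0.13, and at −0.03 after scaling to the hybridization controls. Ybx3, a Tjp1-binding transcription factor gene, stood at 0.21 ± 0.11, at 0.36 without control 1 and at 0.06 without control 2.

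Among 15 other adherens junction genes, 1 was lower and none higher at an unadjusted p under 0.05 (7.61% and 5.36% of all tested probe sets). It was Cdh13, a cadherin anchored to the membrane by lipid, with signals of 47.2 and 34.3 in PhIP and 60.9 and 60.1 in control (log2 fold change −0.49 ± 0.20, limma adjusted p = 0.368). The p120 catenin gene Ctnnd1, whose product steadies E-cadherin at the membrane, stood at −0.25 ± 0.12 and at −0.02 after scaling to the hybridization controls. Ctnnal1 (−0.35 ± 0.23) and the nectin gene Nectin1 (−0.27 ± 0.21) were on the same side, at −0.18 and −0.06 after that scaling. Nectin1 stood at −0.03 without control 2. Cdh13 stood at −0.29 after that scaling.

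Of 11 desmosome, gap junction and epithelial adhesion genes, 4 were higher at an unadjusted p under 0.05 and none lower (5.36% and 7.61% of all tested probe sets). Gjb1, which encodes the gap junction protein connexin 32, had signals of 490.5 and 545.7 in PhIP and 367.9 and 351.3 in control (log2 fold change 0.51 ± 0.11, limma adjusted p = 0.131). Both PhIP arrays were far above both control arrays, with a change of 0.55 without control 1 (limma adjusted p = 0.00521), 0.48 without control 2 (limma adjusted p = 0.0283) and 0.74 after scaling to the hybridization controls (limma adjusted p = 0.0327). The desmosomal cadherin gene Dsg2 had 375.9 and 381.2 in PhIP and 304.1 and 305.9 in control (0.30 ± 0.11, limma adjusted p = 0.309), the pools of each group being nearly equal. Evpl, an envoplakin gene of the cornified envelope, stood at 0.42 ± 0.18, and Epcam at 0.17 ± 0.07.

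**Figure D4:**
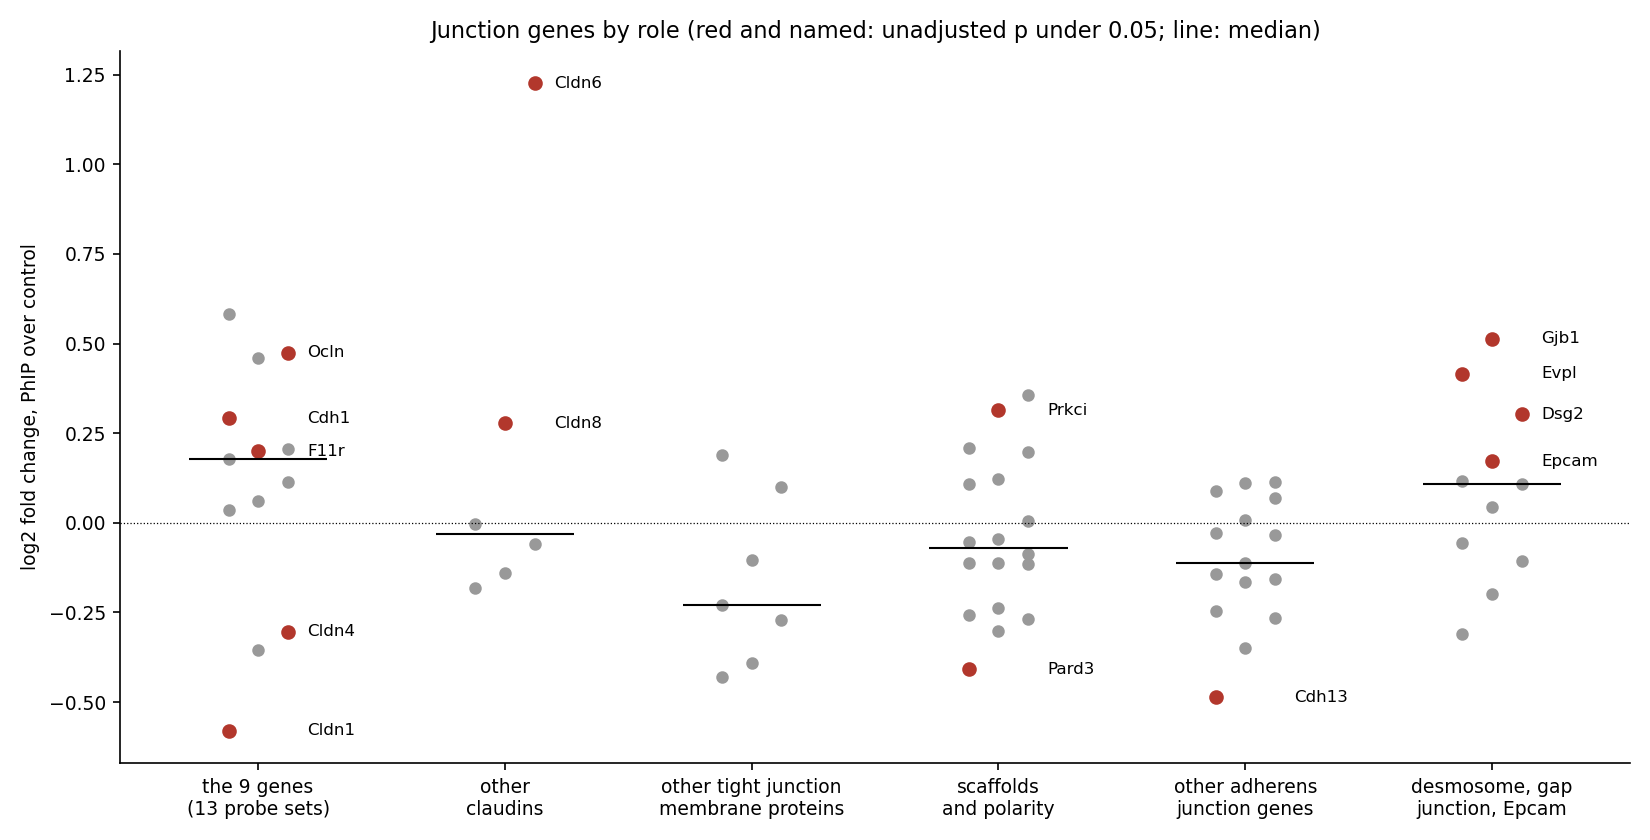
Log2 fold change, PhIP over control, of the members' 13 tested probe sets and of the other tested junction genes by role, 1 probe set a gene, with each group's median as a line. Red points with names have an unadjusted p under 0.05. The points of each role lie on both sides of 0.

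Transcriptional regulators of junction genes were examined beside their targets. Of 10 tested, 3 were lower at an unadjusted p under 0.05 and none higher (7.61% and 5.36% of all tested probe sets). Zeb2, a repressor of E-cadherin transcription, had signals of 15.1 and 18.4 in PhIP and 30.2 and 31.6 in control (log2 fold change −0.62 ± 0.23, limma adjusted p = 0.326). Its relative Zeb1 had 82.4 and 99.7 in PhIP and 111.5 and 138.7 in control (−0.42 ± 0.17, limma adjusted p = 0.372). Zeb1 stood at −0.56 without control 1, −0.27 without control 2 and −0.20 after scaling to the hybridization controls. In both, the PhIP arrays were below the control arrays. Both genes are also expressed by stromal cells, most of whose markers were lower in PhIP as given above, and the part of the stroma in these values was not tested. Cdx2, a transcription factor of the intestine, had 19.8 and 15.1 in PhIP and 32.1 and 69.8 in control (−1.08 ± 0.32, limma adjusted p = 0.241). It stood at −1.54 without control 1 and −0.62 without control 2. Klf5, an epithelial activator, stood at 0.20 ± 0.13, with both PhIP arrays higher. The repressor gene Snai1 was dim and had overlapping groups, at 14.3 and 15.3 in PhIP and 14.3 and 20.5 in control (−0.13 ± 0.26, limma adjusted p = 0.841).

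The tested genes whose log2 values over the 4 arrays, centred on their mean, lay closest to those of Cldn4 were Tbc1d30, Plod1 and Fam120b, at Euclidean distances of 0.015, 0.028 and 0.032. Closest to Ocln 1378753_at were Cited2, Fam234b and Nudt21, at 0.019, 0.045 and 0.046. Cited2 had signals of 1061.1 and 958.6 in PhIP and 791.0 and 652.9 in control. With only 4 arrays, and the nearest genes picked out of all those tested, the likeness is a description only.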

How the data were processed

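The deposited values are MAS5 intensities, a signal for every probe set on each array; MAS5 is named, with no version, per the submitters' processing notes; biotin-labelled cRNA came from pooled RNA of 2 rats per array, per the labels. Neither the scaling target nor detection calls are given in the sources used here. All arrays had a mean of 100.0 when 2% was trimmed from both ends. Of 31099 probe sets, 57 manufacturer controls were left out, and the other 31042 were named through the platform annotation (20826 had 1 symbol, 436 several and 9780 none); all 9 members matched the GRCr8 gene table by Entrez identifier. Signals were taken as log2(signal + 10), which understates the change of dim genes, and the 18625 probe sets with a mean above the 40th percentile were tested with limma 3.58.1 (R 4.3.3; lmFit, eBayes with an intensity trend, 2 residual and 5.67 prior degrees of freedom; two-sided; Benjamini-Hochberg over all tested). The number of arrays limits the precision. The p-values and SE weigh a probe set's own spread between pools (2 degrees of freedom) with that of probe sets of like intensity (5.67). The steps were tested on simulated data. The naming rule took every member, up to 4 genes with the largest moderated statistic in each other list, and the 3 genes most like Cldn4 and Ocln. Some marker genes it took are given within their list's sum only, and Krt8, Pbsn, Sbp, Cd3e, Dcn, Snai1 and Axin2 were named outside it. Members and lists were chosen with earlier results of these data known. Plots were drawn with matplotlib 3.10.9 (Python 3.11.15). Alternatives were other constants, filters, normalizations and variance settings, a replicate block, and leaving out each array.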

Additional observations from a re-analysis of the deposited data

How the results depend on the processing

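With 2 arrays a group, precision is limited by the number of arrays, and detection calls were not used. The number of probe sets past an adjusted p of 0.05, 5 in all, was 22 with a constant of 20, 44 with the 60th percentile filter, 52 with robust eBayes, 164 after scaling to the hybridization controls, 3 after cyclic loess, and 0 after quantile normalization, after median centring, without the filter or with eBayes lacking the trend. Leaving out an array gave 0 to 2361. At an unadjusted p under 0.05 the share of all tested probe sets, 13.0%, was 11.9% to 12.1% after cyclic loess, after quantile normalization, with the replicate block and with eBayes without trend, 17.0% when arrays were centred on their medians, 22.2% after scaling to the hybridization controls, and 5.62% to 28.4% with an array left out. Members at that p, 5 in all, numbered 3, 3, 4, 2, 8, 9, and 2 to 9 in that order, and other junction genes, 9 in all, numbered 17 after scaling to the hybridization controls, 5 with eBayes without trend, and 3 to 16 with an array left out. The same replicate numbers did not pair the arrays (correlation of deviations −0.06). The replicate block gave 35 probe sets past the adjusted p, 4 members and 5 other junction genes at the unadjusted p. Of 207 values of single member probe sets under alternatives, 198 kept direction and side of the adjusted threshold, 6 passed it, all with a control array left out, and 3 changed direction. Those were Ctnnb1 1373067_at after quantile normalization (−0.014), after cyclic loess (−0.016) and without control 2 (−0.11, the range with an array left out being −0.11 to 0.18). The causes were not tested.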

Other observations

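Partners and targets of beta-catenin in Wnt signalling had 11 negative and 5 positive log2 changes. Of 16 tested, none was higher and 2 were lower at an unadjusted p under 0.05 (5.36% and 7.61% of all tested probe sets), and the median log2 change was −0.10, beside −0.03 over all tested probe sets. Lgr5, a Wnt target and receptor that marks stem cells of the gut, had signals of 19.1 and 32.5 in PhIP and 54.1 and 73.7 in control. Both PhIP arrays were below both control arrays (log2 fold change −1.06 ± 0.25, limma adjusted p = 0.169), with −1.25 without control 1 and −0.87 without control 2. Ccnd1, the cyclin D1 gene, had 920.3 and 868.8 in PhIP and 1030.7 and 1197.0 in control (−0.31 ± 0.10, limma adjusted p = 0.279). It stood at −0.08 after scaling to the hybridization controls, at −0.42 without control 1 and −0.20 without control 2. The Wnt receptor ligase gene Znrf3 stood at −0.42 ± 0.20 with overlapping groups, at −0.69 without control 1 and at −0.15 without control 2. Csnk1a1, whose kinase marks beta-catenin for degradation, stood at 0.18 ± 0.09, at 0.27 without control 1 and at 0.09 without control 2. Axin2, a common readout of Wnt activity, had 26.9 and 33.8 in PhIP and 23.0 and 45.1 in control, the PhIP values lying between those of control. It was named after its values were seen.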
